A study of Mus musculus with 6 samples.

Results

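The E2F factors and their pocket protein partners were examined in proliferating muscle stem cells (MuSCs) with and without Kmt5b, the histone methyltransferase also named Suv4-20h1. The 10 genes were taken by symbol from the 14546 genes of the deposited table: E2f1 to E2f8, Rb1 and Rbl1, the last of which encodes p107. Ctrl cells came from mice labelled Pax7CreERT/Suv4-20h1WT and Kmt5b sKO cells from mice labelled Pax7CreERT/Suv4-20h1KO, with 3 libraries each. Both groups therefore carried the tamoxifen-inducible Cre allele driven by Pax7, which acts only in cells that express Pax7. According to the methods, adult C57BL/6 mice received tamoxifen, and MuSCs were enriched with magnetic beads from limb and trunk muscle and cultured. The paper's reporting summary calls the 3 PRO-seq libraries of a genotype biological replicates. The labels do not say whether each library came from a separate animal, so p-values measure the spread between these libraries. PRO-seq captures the RNA that engaged RNA polymerases are making, so the values are transcription at the moment of the assay and not mRNA or protein amount.

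E2F factors bind promoters of genes needed for DNA replication and cell division, mostly as a pair with a DP protein. E2F1, E2F2 and E2F3 are activators that RB, the product of Rb1, holds inactive until cyclin-dependent kinases phosphorylate it. E2F4 and E2F5 work mainly as repressors together with p107 and its relative p130, E2F6 represses without a pocket protein, and the atypical factors E2F7 and E2F8 repress E2F target genes later in the cycle. Several genes of the family are E2F targets themselves.

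Because the family can act on its own promoters, RefSeq promoter windows (GRCm38.p6, from upstream to shortly downstream of a start) were searched on both strands for TTTNNCGC, the core of the E2F site, where N is any base. The table held windows of 7 of the 10 genes, not including E2f4, E2f5 and Rb1. The core was present in 4 of their 9 windows, 1 each of E2f2, E2f3, E2f7 and Rbl1, against 5.16% of 32817 promoters. The more specific form TTTCCCGC was present in E2f3 and E2f7 (1.07% of promoters) and TTTGGCGC in E2f2 (0.515%), both of which also match the core. The 30 bases around each match are printed 5′ to 3′ in the direction of transcription, with the match in capitals. A link between the matches and the values described further on was not tested.
Rbl1, chr2:157204534-157204563, minus strand: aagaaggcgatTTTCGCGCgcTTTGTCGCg
E2f2, chr4:136172267-136172296, plus strand: gaggcgcggcaTTTTCCGCgggagatccga
E2f2, chr4:136172294-136172323, plus strand: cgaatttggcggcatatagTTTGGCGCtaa
E2f7, chr10:110745230-110745259, plus strand: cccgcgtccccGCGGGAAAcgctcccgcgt
E2f3, chr13:29986056-29986085, minus strand: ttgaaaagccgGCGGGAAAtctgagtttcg
The matches of E2f3 and E2f7 lie on the opposite strand, so their capitals read as the reverse complement. The first match begins 18 bases before the RefSeq start in Rbl1, 11 before it in E2f3 and 198 before it in E2f7, whereas both E2f2 matches begin after it, by 4 and 39 bases. TTTGAA, the cell cycle homology region to which the MuvB complex binds, occurred in windows of E2f2, E2f3 and E2f8 and in 17.9% of promoters. Several windows belong to other starts than those counted in PRO-seq, 466 nt downstream for E2f1, 555 nt upstream for E2f8, and 120 nt upstream and 8388 nt downstream for the pair of E2f2 windows, and 1672 nt downstream for 1 of the E2f3 windows. The windows of E2f6, E2f7 and Rbl1 have starts 12 to 26 nt upstream of the counted ones. Both E2f2 matches therefore lie upstream of the counted start. A match is a run of letters and not a shown binding site.

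Reads were counted by the authors in 2 parts of a transcript, the TSS region of 400 nt at its beginning and the gene body after it. TSS values are RPM, which here scale the reads of TSS regions to a fixed total, and gene body values are TPM, which also divide by length. A TSS value is therefore a share of the TSS reads and not of the whole library. The listed genes held 1066287 to 3246052 TSS reads per library in Ctrl against 926904 to 1841069 in Kmt5b sKO. Their gene bodies held 13582379 to 16249142 reads per library in Ctrl against 7425424 to 12824298 in Kmt5b sKO, without overlap. Behind single values of the 10 genes lay 11 to 1459 TSS reads and 60 to 4856 gene body reads, the lowest single values being those of E2f1 and E2f7, respectively. The cells were myogenic by their markers, with Myod1 at 855 to 1328 TPM and Pax7 at 25.5 to 53.7 TPM in the gene body. Transcription of Kmt5b itself was 34.8 ± 4.0 TPM in Ctrl against 38.5 ± 3.8 TPM in Kmt5b sKO (SD, n = 3 each; limma adjusted p = 0.71), so these values do not check the genotype, which rests on the labels.

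The other cell types that a muscle preparation can hold were checked with marker lists. Mature fibre markers summed to 993 to 1921 TPM in Ctrl against 2255 to 3473 TPM in Kmt5b sKO, and all 9 tested were higher without passing the test (median log2 fold change 0.83 in the gene body). Mb, which encodes myoglobin, went from 47.0 ± 18 to 93.5 ± 16 TPM (adjusted p = 0.14), and Mylpf, a fast-fibre myosin light chain, from 325 ± 119 to 722 ± 254 TPM (adjusted p = 0.18). Myogenic markers summed to 1956 to 3086 TPM in Ctrl against 2867 to 3895 TPM in Kmt5b sKO, and 0 of 9 passed. Of these, Des (desmin) went from 443 to 737 TPM (adjusted p = 0.23) and Sdc4 from 36.3 to 49.7 TPM (adjusted p = 0.47).

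Among markers of non-muscle cells, Cd68 and Col3a1 stood out. Fibro-adipogenic markers summed to 48.0 to 72.9 TPM in Ctrl against 52.2 to 57.1 TPM in Kmt5b sKO (0 of 5 passed), with Cd34 at no more than 1.59 TPM and Col1a1 at 1.15 to 11.4 TPM. Most of that sum came from the collagen gene Col3a1, named after its values were seen, with 36.3 to 54.9 TPM in Ctrl against 36.7 to 43.6 TPM in Kmt5b sKO. Endothelial markers summed to 14.3 to 17.2 and 13.8 to 22.7 TPM (0 of 2 passed), with Esam at 7.99 to 12.9 TPM and Pecam1 at 1.42 to 3.04 TPM. Macrophage markers summed to 215 to 403 and 322 to 330 TPM (0 of 2 passed), nearly all of it from Cd68, a lysosomal protein gene, while Laptm5 stayed at or below 5.27 TPM. Schwann cell markers summed to 13.4 to 17.3 TPM in Ctrl against 21.5 to 31.9 TPM in Kmt5b sKO, and 1 of 4 passed: Sox10, a glial transcription factor gene, rose in the gene body from 3.29 ± 1.0 to 10.8 ± 4.1 TPM (adjusted p = 0.075). The defining markers Dcn, Lum, Emcn, Flt1, Kdr, Adgre1, Csf1r, Lyz2, Ptprc and Tyrobp were not analysed here. The fibre and Schwann cell sums moved with genotype, and their part in the results on E2F genes was not tested.

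All 10 genes were transcribed in every library, but at levels that spanned more than an order of magnitude. In the gene body of Ctrl cells E2f4 stood highest, at 138 ± 24 TPM (SD, n = 3), above 97.3% of tested genes, and its libraries did not overlap those of any other member. E2f8 (89.2 ± 17 TPM) and E2f2 (69.9 ± 35 TPM) came next and overlapped each other. E2f3 (39.4 ± 2.2), E2f1 (29.2 ± 11), Rb1 (26.2 ± 5.6), E2f7 (22.6 ± 7.7) and E2f6 (20.3 ± 2.4 TPM) formed a middle stretch in which each overlapped its neighbour. Rbl1 (14.02 ± 1.2 TPM) and E2f5 (11.3 ± 2.0 TPM) were lowest and not separated from each other.

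The order changed in Kmt5b sKO cells mainly at its lower end. E2f4 (188 ± 30 TPM), E2f8 (76.7 ± 9.95 TPM) and E2f2 (73.5 ± 21 TPM) still led, and E2f4 was again separate from all others. E2f7 moved to 8.97 ± 2.2 TPM and Rbl1 to 8.51 ± 1.1 TPM, next to E2f5 at 11.6 ± 1.2 TPM at the bottom of the order. In the TSS region, where every window has the same length, E2f3 stood highest in both genotypes, with 200 ± 83 RPM in Ctrl against 89.0 ± 24 RPM in Kmt5b sKO. Its libraries did not overlap those of the next gene, but in Kmt5b sKO they nearly touched. The lowest E2f3 library there had 63.26 RPM and the highest E2f8 library 63.01 RPM. Rb1 had the lowest mean in Ctrl (10.4 ± 2.9 RPM) and E2f1 in Kmt5b sKO (7.95 ± 4.6 RPM).

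**Figure D1:**
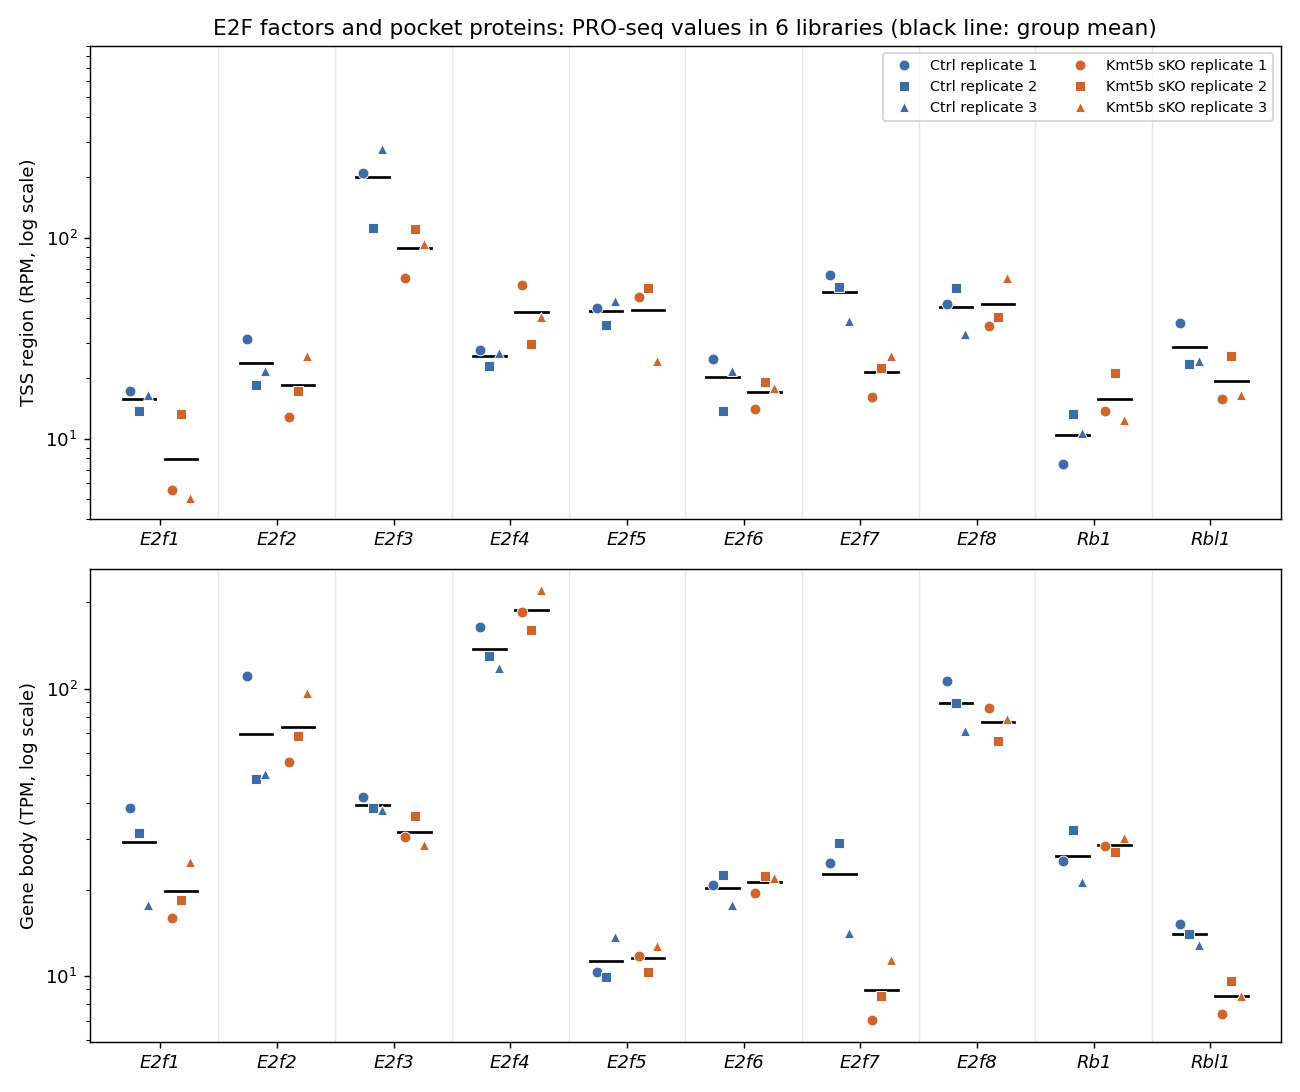
TSS region values in RPM (top) and gene body values in TPM (bottom) of the 10 genes in each of 3 Ctrl and 3 Kmt5b sKO libraries, on log axes, with the group mean as a black line. E2f7 lies lower in all Kmt5b sKO libraries in both panels, Rbl1 in the gene body, and E2f3 in both panels with a narrow gap in the TSS region (112 against 111 RPM).

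Between genotypes, 2 of the 10 genes passed the test at the TSS and 1 passed it in the gene body, each lower in Kmt5b sKO. A gene was called at an adjusted p under 0.1, over 12451 tested genes, of which 1.66% were called at the TSS (0.932% higher, 0.731% lower) and 2.99% in gene bodies (1.61% higher, 1.38% lower). The TSS calls were E2f3 and E2f7, and the gene body call was Rbl1. An unadjusted p under 0.05 was reached by 4 of 10 genes in each region, against 11% and 15.9% of all genes. Groups did not overlap for 4 of 10 genes in the TSS region (3 lower, 1 higher; 15.6% of all genes, 5.33% lower and 10.2% higher) and for 3 of 10, all lower, in the gene body (21.4% of all genes, 9.34% lower). The median log2 fold change of the 10 genes was -0.29 for the TSS region and -0.08 for gene bodies, beside 0.08 and 0.02 over all genes. A lower value in a bulk library does not tell fewer cells that transcribe a gene from less transcription per cell. Values are also shares of a fixed total, so here and below lower means a smaller share, and absolute amounts were not measured. The paper reports more nascent RNA in Kmt5b sKO cells during S phase, from a separate labelling assay. From PRO-seq it reports increased activity at both TSSs and gene bodies of its potential KMT5B target genes as a group. By flow cytometry it reports no significant change in the shares of cells before or in S phase, and slightly more cells in G2/M.

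**Figure D2:**
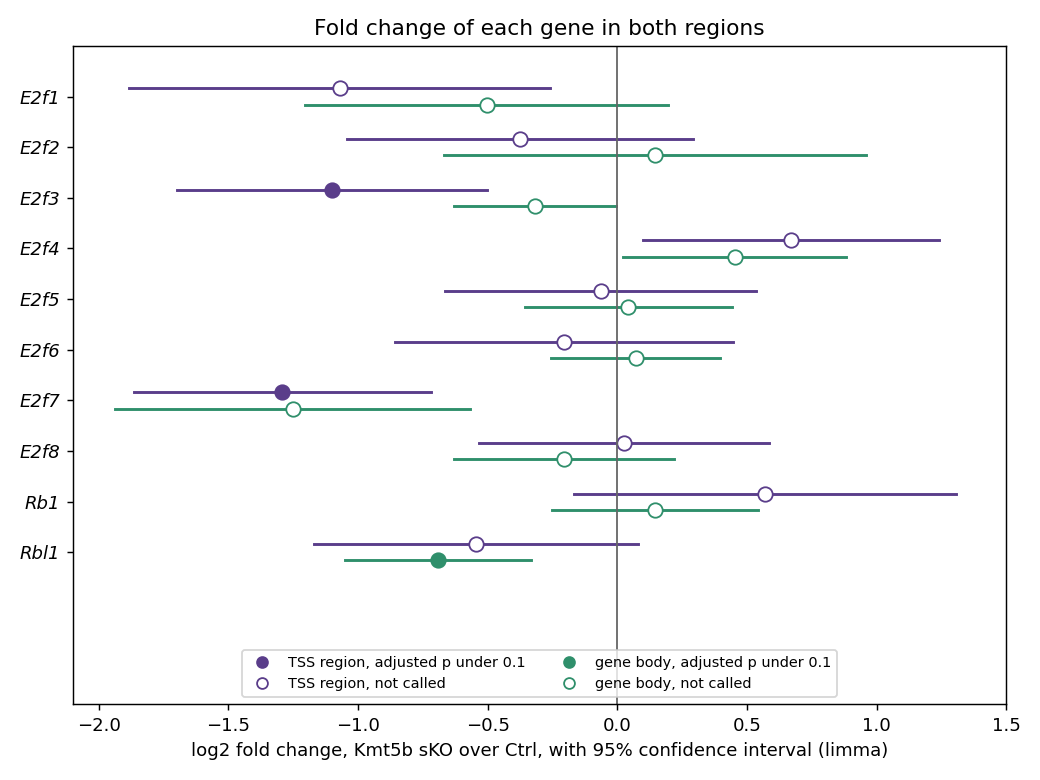
Log2 fold change of Kmt5b sKO over Ctrl with its 95% confidence interval from limma for each gene, in the TSS region (purple) and the gene body (green), filled where the adjusted p was under 0.1. E2f7 lies at -1.29 and -1.25 but is filled only in the TSS region, E2f3 is filled in the TSS region, Rbl1 in the gene body, and both points of E2f4 lie above 0.

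E2f3 (ENSMUSG00000016477, GRCm38 chr13:29906575-29986063, minus strand) is an activator that supports entry into S phase. Its TSS region held 210, 112 and 276 RPM in Ctrl (replicates in the order 1 to 3, as in all such values) against 63.3, 111 and 92.9 RPM in Kmt5b sKO. The groups did not overlap, but Ctrl replicate 2 and Kmt5b sKO replicate 2 nearly touched. The mean fell by 55.4%, with a log2 fold change of -1.10 (SE 0.29; limma adjusted p = 0.081). Without Ctrl replicate 1 or 3 or Kmt5b sKO replicate 1 or 3 the adjusted p was 0.36, 0.19, 0.36 and 0.22, and over all alternatives it lay between 0.0036 and 0.46.

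In the gene body E2f3 showed a much smaller difference. The values were 42.0, 38.6 and 37.7 TPM in Ctrl against 30.6, 36.0 and 28.5 TPM in Kmt5b sKO. All Kmt5b sKO libraries again lay below all Ctrl libraries, while the log2 fold change was -0.32 (SE 0.13) and did not pass (adjusted p = 0.31). The counted transcript is the one that begins furthest upstream, and 2 other coding isoforms in the annotation begin 1672 nt further downstream, so the TSS value belongs to the upstream start alone and the gene body is shared. The antisense transcript Gm11365 overlaps E2f3 on the other strand, and the authors counted the sense strand.

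E2f1 (ENSMUSG00000027490, chr2:154559407-154569892, minus strand), an activator that RB restrains, had the lowest TSS read number in any single library, 11 reads in Kmt5b sKO replicate 3. Its TSS values were 17.2, 13.8 and 16.5 RPM in Ctrl against 5.57, 13.2 and 5.06 RPM in Kmt5b sKO. All Kmt5b sKO libraries were below Ctrl, with replicate 2 close to it, and the log2 fold change of -1.07 (SE 0.39) did not pass (adjusted p = 0.25). The gene body values overlapped, at 38.6, 31.4 and 17.7 TPM in Ctrl against 15.97, 18.5 and 25.0 TPM in Kmt5b sKO (log2 fold change -0.50, SE 0.30, adjusted p = 0.49). Without Ctrl replicate 3, the low Ctrl library, the gene body value was -0.82 with an adjusted p of 0.098, the lowest over the alternatives, whose highest was 0.80.

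E2f2 (ENSMUSG00000018983, chr4:136172394-136196057, plus strand), the third activator, overlapped between genotypes in both regions. The TSS region held 31.5, 18.4 and 21.8 RPM in Ctrl against 12.8, 17.2 and 25.8 RPM in Kmt5b sKO, and the gene body 111, 48.4 and 50.5 against 55.5, 68.5 and 96.7 TPM. The spread within Ctrl was wide because replicate 1 had more than the other two in both regions. The 95% interval of the gene body difference ran from -0.67 to 0.96 on the log2 scale, which leaves room for a change in either direction.

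E2f4 (ENSMUSG00000014859, chr8:105297663-105305370, plus strand) is the main repressor-type E2F and was the most transcribed member. It was the one member whose TSS groups did not overlap in the upward direction, as held for 10.2% of all tested genes. Its TSS values were 27.6, 23.0 and 26.7 RPM in Ctrl against 58.0, 29.7 and 40.5 RPM in Kmt5b sKO, a log2 fold change of 0.67 (SE 0.27) that did not pass (adjusted p = 0.33). In the gene body the values were 164, 131 and 118 TPM in Ctrl against 185, 160 and 220 TPM in Kmt5b sKO. Ctrl replicate 1 lay above Kmt5b sKO replicate 2, and the log2 fold change was 0.45 (SE 0.18, unadjusted p = 0.041, adjusted p = 0.29).

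E2f5 and E2f6 gave no difference that passed. E2f5 (ENSMUSG00000027552, chr3:14578641-14606309, plus strand), the other repressor-type E2F, had gene body means of 11.3 ± 2.0 and 11.6 ± 1.2 TPM, with an interval of the log2 difference from -0.36 to 0.44. Its TSS values ranged from 36.8 to 48.5 RPM in Ctrl against from 24.4 to 56.1 RPM in Kmt5b sKO. E2f6 (ENSMUSG00000057469, chr12:16810977-16826752, plus strand), which represses as part of a Polycomb complex, had 20.3 ± 2.4 and 21.3 ± 1.5 TPM in the gene body, with an interval from -0.26 to 0.40, and 20.2 ± 5.7 and 17.1 ± 2.6 RPM in the TSS region. These intervals do not include a change of the size fitted for E2f7.

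Of the atypical pair, E2f7 passed the test in the TSS region. E2f7 (ENSMUSG00000020185, chr10:110745465-110756637, plus strand), which represses E2F target genes without a DP partner, had the largest fitted decrease of the 10 genes in both regions. Its TSS region held 64.9, 56.9 and 38.6 RPM in Ctrl against 16.1, 22.5 and 25.8 RPM in Kmt5b sKO. Every Kmt5b sKO library lay below every Ctrl library, and the mean fell by 59.9%, with a log2 fold change of -1.29 (SE 0.27, adjusted p = 0.045). Without Ctrl replicate 1 the adjusted p was 0.29 and without Kmt5b sKO replicate 1 it was 0.19, within a range of 0.0025 to 0.32 over the alternatives.

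The gene body of E2f7 gave nearly the same fold but missed the threshold. The values were 24.7, 29.1 and 14.1 TPM in Ctrl against 7.02, 8.50 and 11.4 TPM in Kmt5b sKO. Again no library overlapped, with Ctrl replicate 3 nearest to the mutants, and the log2 fold change was -1.25 (SE 0.29, adjusted p = 0.10). The reads recovered from the values gave -1.34 with an adjusted p of 0.046 in edgeR, where 6.01% of genes were called, and the adjusted p lay between 0.00049 and 0.29 over the alternatives. The counted isoform has 3 exons and ends at 110756637, while other coding isoforms run to 110787384, so the gene body value covers the first part of the gene.

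E2f8 (ENSMUSG00000046179, chr7:48866429-48881041, minus strand), the other atypical repressor, did not pass in either region. Its gene body held 106, 89.6 and 71.6 TPM in Ctrl against 85.6, 66.0 and 78.7 TPM in Kmt5b sKO (log2 fold change -0.20, SE 0.18, adjusted p = 0.67). In the TSS region the means were 45.4 ± 12 and 46.6 ± 14 RPM (log2 fold change 0.03, SE 0.27), a sign that turned with centring of the libraries. Another coding isoform in the annotation begins 555 nt further upstream, at 48881596. The counted TSS region lies within the span of that isoform, and its own start was not counted. The difference between E2f7 and E2f8 was not tested as such.

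Of the pocket protein genes, 1 passed the test. Rbl1 (ENSMUSG00000027641, chr2:157145893-157204512, minus strand) encodes p107, which joins E2F4 or E2F5 in repressor complexes. Its gene body held 15.2, 14.02 and 12.8 TPM in Ctrl against 7.40, 9.60 and 8.52 TPM in Kmt5b sKO. The groups were clearly apart, and the mean fell by 39.3%, with a log2 fold change of -0.69 (SE 0.15, adjusted p = 0.095). The call is close to the threshold and was lost without any single library other than Ctrl replicate 3 (adjusted p 0.16 to 0.28), while edgeR on recovered reads gave -0.74 with an adjusted p of 0.034, within a range of 0.00050 to 0.29.

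The TSS region of Rbl1 did not pass. It held 37.5, 23.6 and 24.3 RPM in Ctrl against 15.7, 25.8 and 16.6 RPM in Kmt5b sKO, with Kmt5b sKO replicate 2 above 2 of the Ctrl libraries (log2 fold change -0.55, SE 0.30, adjusted p = 0.55). Rb1 (ENSMUSG00000022105, chr14:73195502-73325822, minus strand), which encodes RB, had gene body values of 25.2, 32.2 and 21.2 TPM in Ctrl against 28.4, 27.1 and 30.3 TPM in Kmt5b sKO. All 3 Kmt5b sKO values lay within the Ctrl range, with a log2 fold change of 0.14 and an interval from -0.25 to 0.54 (adjusted p = 0.76). Its TSS region went from 10.4 ± 2.9 to 15.8 ± 4.7 RPM and also did not pass (adjusted p = 0.62). The difference between Rbl1 and Rb1 was not tested as such.

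Relations between members within a library do not depend on library scaling, and they are given as descriptions without a test. E2f4 made up 31.8%, 32.7% and 34.6% of the summed gene body TPM of E2f1 to E2f8 in Ctrl against 45.0%, 41.1% and 44.5% in Kmt5b sKO. The sum itself overlapped, at 518, 400 and 341 TPM in Ctrl against 410, 391 and 495 TPM in Kmt5b sKO, and a difference in it was not tested. The activators E2f1, E2f2 and E2f3 together over E2f4 and E2f5 gave 1.09, 0.842 and 0.804 in Ctrl against 0.520, 0.720 and 0.645 in Kmt5b sKO. All mutant ratios lay below all Ctrl ratios, as did those of 30.8% of all other tested genes when divided by E2f4 and E2f5. For the E2f4 share, 7.36% of other genes divided by the same sum were higher without overlap.

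The atypical and pocket pairs were set against each other in the same way. E2f7 over E2f8 was 0.232, 0.325 and 0.197 in Ctrl against 0.0820, 0.129 and 0.145 in Kmt5b sKO. Rbl1 over Rb1 was 0.604, 0.436 and 0.605 in Ctrl against 0.260, 0.354 and 0.281 in Kmt5b sKO. E2f7 was also lower relative to E2f1, with 0.640, 0.926 and 0.797 in Ctrl against 0.440, 0.460 and 0.457 in Kmt5b sKO. In each of these ratios the highest mutant library lay below the lowest Ctrl library. The same held for 2.75% of other tested genes divided by E2f8, for 11.8% divided by Rb1 and for 0.988% divided by E2f1. E2f7 and Rbl1 were already without overlap on their own, so these ratios are no separate evidence.

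**Figure D3:**
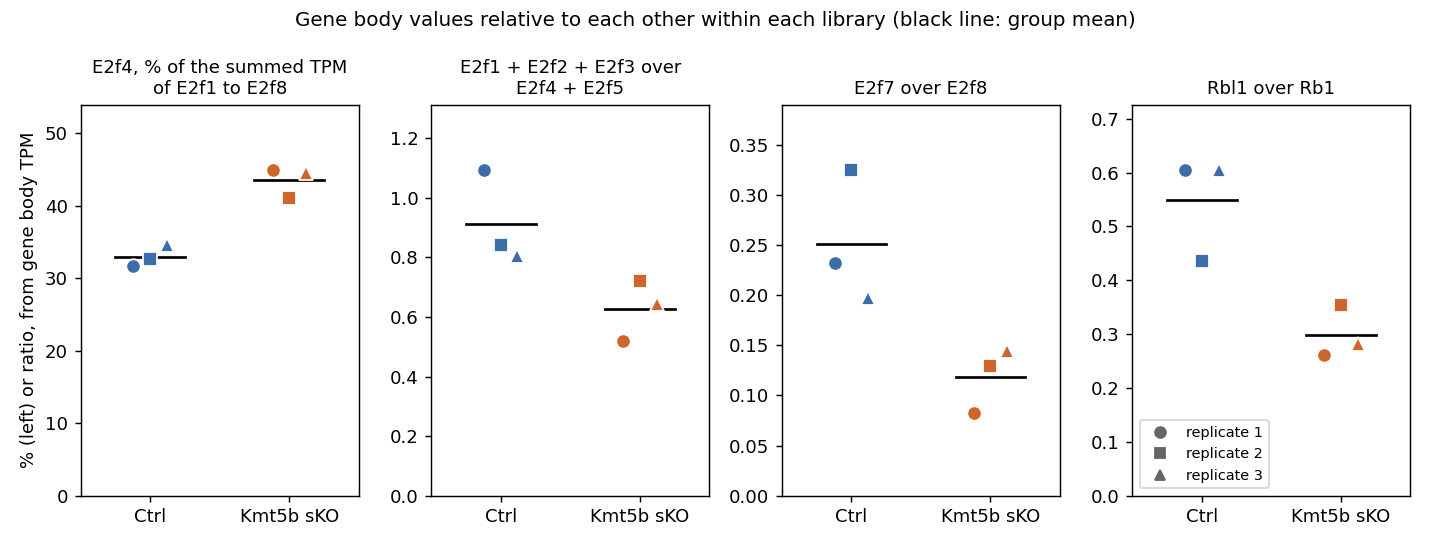
Gene body relations within each library, as the E2f4 share of the summed TPM of E2f1 to E2f8 in %, and as 3 ratios, with 1 point per library and the group mean as a black line. The groups do not overlap in any panel, with E2f4 at 31.8% to 34.6% in Ctrl against 41.1% to 45.0% in Kmt5b sKO.

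The pausing index, which divides the TSS value by that of the body, spread widely over the members and did not pass for any of them. In Ctrl cells E2f3 had the highest mean index, 5.08 ± 2.2, above 92.4% of tested genes, followed by E2f5 (3.86 ± 0.41), E2f7 (2.44 ± 0.43) and Rbl1 (2.01 ± 0.41). E2f4 had the lowest, 0.190 ± 0.032, above 2.74% of genes, and E2f2, Rb1, E2f8, E2f1 and E2f6 also lay below the all-gene median of 1.55. The most transcribed member thus had the least signal at its start relative to its body, and the member with the strongest start signal was intermediate in its body. The index compares RPM with TPM, and each was scaled to its own total. Only its order carries meaning, and its change relative to the other genes, since a shift common to all genes of a library is scaled away.

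Of 11698 genes tested for the index, 0% were called and 3.86% had an unadjusted p under 0.05, and 0 of the 10 genes had either. E2f3 came nearest, with 5.01, 2.90 and 7.32 in Ctrl against 2.07, 3.08 and 3.26 in Kmt5b sKO. Ctrl replicate 2 lay within the mutant range, and the log2 fold change was -0.78 (SE 0.36, unadjusted p = 0.057). E2f7, which was lower by a like amount in both regions, had an index of 2.44 ± 0.43 and 2.40 ± 0.21, with an interval of the log2 difference from -0.55 to 0.52. E2f2 was the only member without overlap, at 0.284, 0.380 and 0.432 in Ctrl against 0.230, 0.251 and 0.267 in Kmt5b sKO (log2 fold change -0.53, SE 0.34), where 9.02% of all genes had none (3.09% lower, 5.93% higher).

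**Figure D4:**
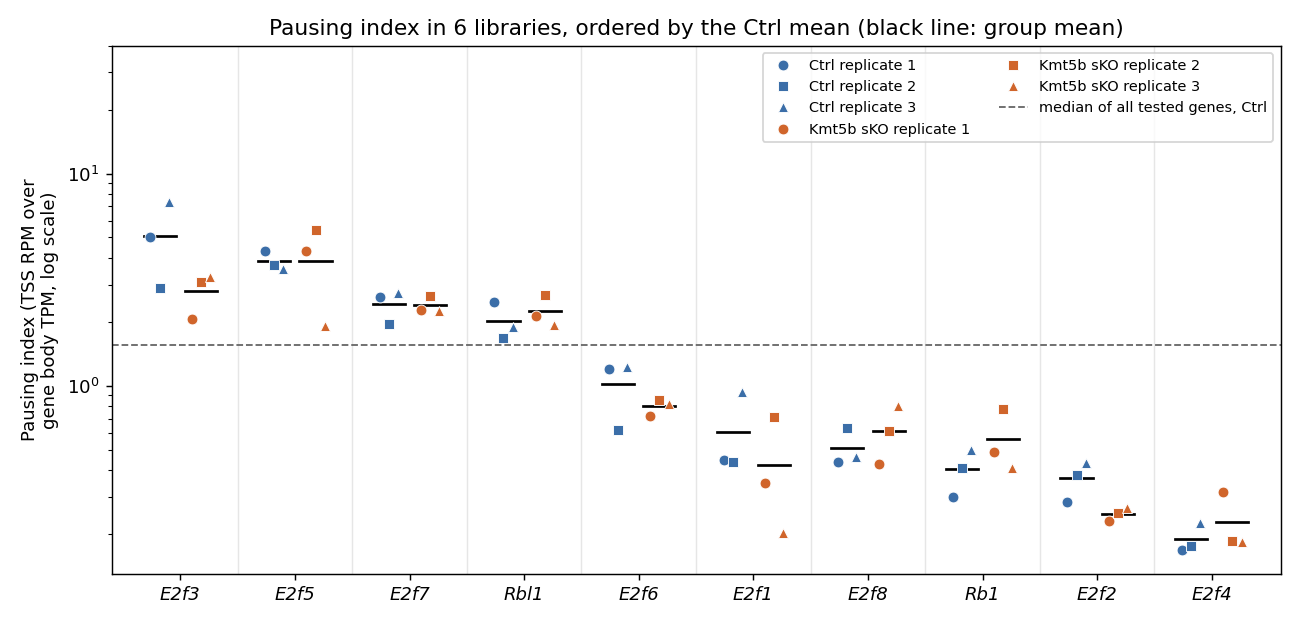
Pausing index (TSS RPM over gene body TPM, log axis) of each gene in 3 Ctrl and 3 Kmt5b sKO libraries, ordered by the Ctrl mean, with group means as black lines and the Ctrl median of all tested genes, 1.55, as a dashed line. E2f3, E2f5, E2f7 and Rbl1 have group means above the line and the other 6 below it, and E2f3 has 5.08 ± 2.2 in Ctrl against 2.80 ± 0.64 in Kmt5b sKO.

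The other genes of the pathway were counted in lists. Among 10 DP partners and MuvB core genes, 0 passed at the TSS and 1 passed in the body (median log2 fold changes -0.04 and -0.30). The gene that passed was Lin9, a MuvB core subunit, which fell from 16.3 ± 1.4 to 9.87 ± 1.5 TPM (log2 fold change -0.70, adjusted p = 0.099). The p130 gene Rbl2, chosen here as the remaining pocket protein after its values were seen, had 6.58 ± 0.41 and 5.85 ± 0.88 TPM (adjusted p = 0.72). Among 12 genes of the Polycomb complex of E2F6, 0 passed in either region (medians 0.14 and -0.04). The smallest gene body p-values there belonged to Cbx3, a heterochromatin protein gene, at 58.0 ± 5.8 and 46.7 ± 5.0 TPM (adjusted p = 0.33), and to Hdac2, a histone deacetylase gene, at 18.2 ± 1.4 and 21.5 ± 1.4 TPM (adjusted p = 0.45).

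Among 17 genes upstream of RB, 2 were called lower at the TSS and 3 in gene bodies, and 0 were called higher (medians -0.27 and -0.34). The genes Ccne1 and Ccne2 are also on the list of G1/S targets given below, so their calls are counted in both lists. Fold changes were below 0 for 13 of 17 and above 0 for 4 of 17 in each region. Ccna2, which encodes cyclin A2, fell from 62.5 ± 15 to 24.6 ± 2.5 TPM in the gene body (log2 fold change -1.31, adjusted p = 0.061). Of the cyclin E genes, whose kinase phosphorylates RB, Ccne1 fell from 44.1 ± 8.3 to 20.3 ± 4.0 RPM in the TSS region (-1.10, adjusted p = 0.064), beside -1.18 in the gene body (adjusted p = 0.10). Ccne2 fell from 20.1 ± 1.9 to 9.84 ± 2.7 TPM in the gene body (-1.03, adjusted p = 0.089), beside -0.78 in the TSS region (adjusted p = 0.54). Cdkn1b, which fell from 45.9 ± 5.1 to 29.6 ± 1.3 TPM (-0.62, adjusted p = 0.081), differs from these in that it encodes p27, an inhibitor of the kinases. The other inhibitor gene Cdkn1a and the cyclin D2 gene Ccnd2, both named after their values were seen, had higher values that did not pass. Cdkn1a, which encodes p21, had 462, 600 and 478 TPM in Ctrl against 859, 706 and 969 TPM in Kmt5b sKO, without overlap (0.72, adjusted p = 0.15). Ccnd2 had 6.65 ± 4.1 TPM in Ctrl against 14.5 ± 4.5 TPM, with overlap (1.17, adjusted p = 0.22).

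The E2F target genes gave the most calls. Of 40 G1/S targets, 13 passed at the TSS and 21 in gene bodies, each lower, with medians of -0.86 and -0.91, and 40 and 39 of them had a fold change below 0. Of all tested genes, 0.731% were called lower at the TSS and 1.38% in gene bodies. All gene lists were chosen with earlier results of these data known, so the counts in them are descriptions and no test of a list. Mcm5, a subunit of the replicative helicase, fell from 21.0 ± 0.38 to 8.55 ± 2.1 TPM in the gene body (-1.28, adjusted p = 0.063). In the TSS region Clspn, which encodes the checkpoint mediator claspin, fell from 62.0 ± 18 to 22.8 ± 13 RPM (-1.60, adjusted p = 0.062), Prim1, a primase subunit gene, from 26.1 ± 2.6 to 9.42 ± 1.8 RPM (-1.43, adjusted p = 0.045), and Uhrf1, which maintains DNA methylation at replication, from 82.8 ± 6.3 to 36.1 ± 15 RPM (-1.29, adjusted p = 0.048).

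Of 25 G2/M targets of the DREAM complex, the repressor that E2F4 and a pocket protein form with MuvB, 4 passed at the TSS and 13 in gene bodies, each lower, with medians of -0.85 and -0.95. All 25 had a fold change below 0 in both regions. Bub1, a spindle checkpoint kinase gene, fell from 12.2 ± 1.9 to 4.14 ± 0.27 TPM in the gene body (-1.44, adjusted p = 0.061), and Cenpf, a kinetochore protein gene, from 20.8 ± 6.2 to 9.04 ± 0.82 TPM (-1.11, adjusted p = 0.088). In the TSS region Kif11, a spindle motor gene, fell from 97.9 ± 36 to 38.6 ± 19 RPM (-1.43, adjusted p = 0.064) and Top2a, which encodes topoisomerase IIα, from 203 ± 74 to 82.0 ± 25 RPM (-1.29, adjusted p = 0.041).

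Summed over the list, G1/S targets gave 1347 to 1556 TPM in Ctrl against 749 to 905 TPM in Kmt5b sKO, and G2/M targets 724 to 1157 and 518 to 575 TPM, with no overlap in either. With any 1 library left out, a check of these lists chosen after seeing the data, the medians stayed between -1.01 and -0.68 at the TSS and between -1.03 and -0.76 in gene bodies for G1/S targets, and between -1.09 and -0.68 and between -1.17 and -0.84 for G2/M targets. The calls themselves depended on the libraries: without Ctrl replicate 1, and in the gene body without any one Kmt5b sKO replicate, 0 genes of the whole table were called lower. The 3 called members, with log2 fold changes of -1.10, -1.29 and -0.69, lay in the range of these targets, while the medians of all 10 members were -0.29 and -0.08.

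**Figure D5:**
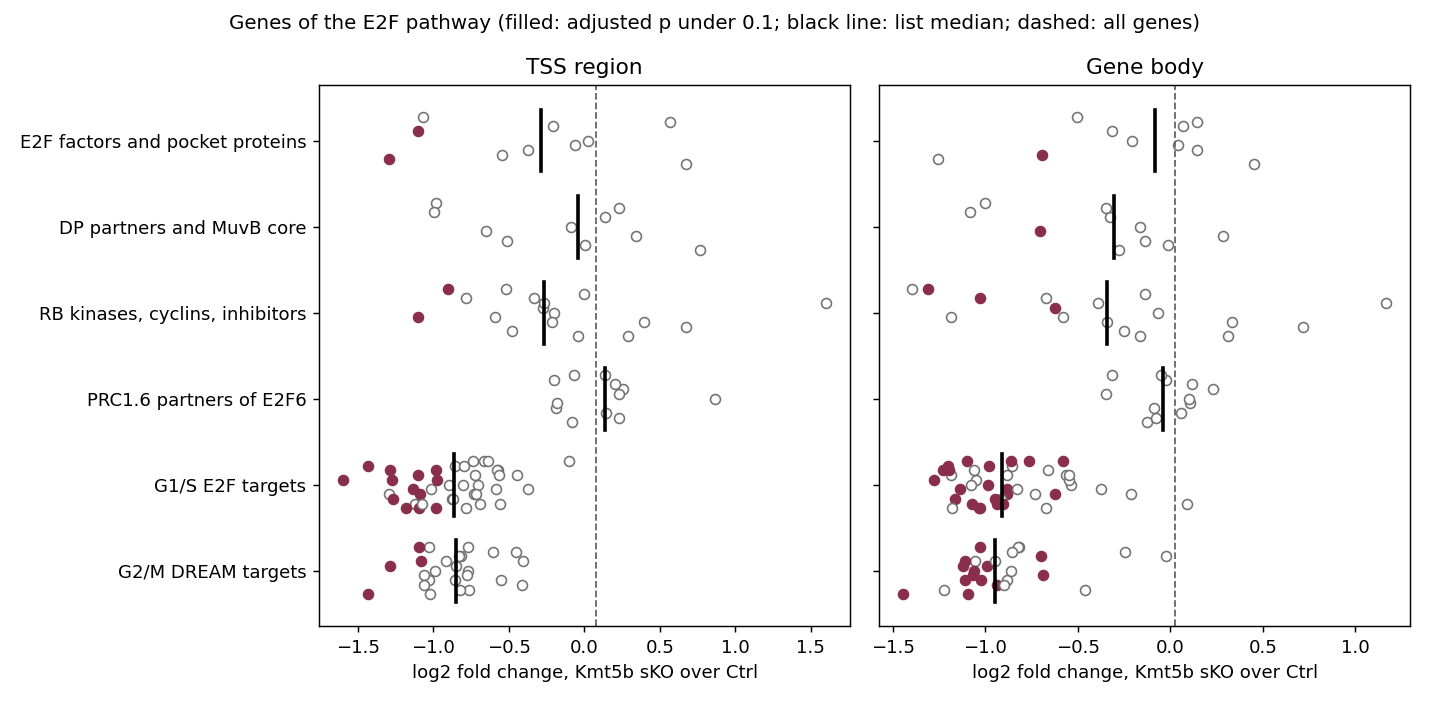
Log2 fold change of Kmt5b sKO over Ctrl for each gene of 6 lists in the TSS region (left) and the gene body (right), filled where the adjusted p was under 0.1, with list medians as black lines and the median of all tested genes dashed. The members scatter around medians of -0.29 and -0.08, while the G1/S and G2/M targets lie almost wholly below 0, with medians between -0.95 and -0.85.

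Genes with the most similar gene body pattern were sought over the 6 libraries among all 12451 tested genes, as a description. For E2f7 the highest Pearson correlations of log2 values were those of Casp8ap2 (0.998), Hn1l (0.995) and Haus5 (0.992), and among the members Rbl1 (0.91) and E2f1 (0.86) came nearest. For E2f1 they were Hist2h2be (0.994), Fdft1 (0.994) and Capn5 (0.993), and for Rb1 they were Timp3 (0.996), Washc1 (0.995) and Dgkq (0.994). The points share genotype and library, and the highest of so many correlations over 6 points are near 1 by choice.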

How the data were processed

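PRO-seq libraries of 3 Ctrl and 3 Kmt5b sKO samples were used. The members and gene lists were chosen with earlier results of these data known. The submitters' processing notes name FastQC 0.11.8, Trimmomatic 0.39, STAR 2.6.1d and Picard 2.18.16, and according to the methods the reads were trimmed, aligned to GRCm38, freed of duplicates and counted on the sense strand, with 1 isoform listed per gene. The TSS values that the authors deposited are RPM (the file headers call them TPM), and the gene body values that the authors deposited are TPM. TPM had been planned for both tests, and the same test was used for RPM since every TSS region has 1 length. No column was left without a sample.

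After the methods, genes on chromosomes X and Y or with a mean under 0.5 in either region were left out. Values were tested as log2(value + 0.5), on which fold changes of low genes are understated, with limma 3.58.1 (lmFit, eBayes with trend) in R 4.3.3, two-sided, with genotype as the only term, and with Benjamini-Hochberg adjustment over all tested genes. For the pausing index, the log2 ratio without a pseudocount was fitted for genes above 0 in all libraries. Whole reads were recovered from the steps between values for at least 99.95% of TSS values and 99.2% of gene body values under 2000 nt, within 0.01 read beyond rounding, for edgeR 4.0.16 and DESeq2 1.42.0. Log2 TSS values of libraries of the same group correlated at 0.92 to 0.947 across genes, and gene body values at 0.945 to 0.972. The fits were tested on simulated data. Coordinates were compared with GENCODE vM21 of GRCm38, and all 10 listed transcripts matched.

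Genes named were all 10 members; from each list at most 4 called genes with the largest fold change, or the 2 with the smallest gene body p where none was called; the 3 most correlated genes of E2f1, E2f7 and Rb1; and Kmt5b. Myod1, Pax7, Rbl2, Mybl2, Foxm1, Cdkn1a, Ccnd2 and Col3a1 were added after their values were seen. Python 3.11.15, numpy 2.4.6, pandas 2.3.3 and matplotlib 3.10.9 were also used.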

Additional observations from a re-analysis of the deposited data

How the results depend on the processing

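In the TSS region 2 members were called, and this became 0 without a filter on low values, without a trend in the variance prior and with the replicate number as a block, 1 at an adjusted p under 0.05, and 0 to 2 with 1 library left out. In the gene body 1 member was called, and this became 0 without the filter, at an adjusted p under 0.05 and with the replicate block, 2 with libraries centred on their median, with quantile normalization, in edgeR and in DESeq2, and 0 to 3 with 1 library left out. No member was called for the pausing index under any alternative run. Over all genes, 207 TSS calls became 0 without the filter, without the trend and with the block, 64 at 0.05, and 1 to 408 with 1 library left out. The 372 gene body calls became 1 at 0.05, 0 with the block, 748 in edgeR, 1295 in DESeq2 and 0 to 836 with 1 library left out. Split by direction, 116 higher and 91 lower TSS calls became 104 and 122 with median centring and 95 and 123 with quantile normalization, and 200 and 172 gene body calls became 221 and 278 with quantile normalization. The labels do not say that a replicate number marks a shared batch, and deviations of same-numbered libraries correlated at -0.163 to -0.0337 in the TSS region and at -0.329 to -0.153 in the gene body, so the numbers were not taken to pair them.

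Of 490 results of a member in a region under an alternative, 441 kept direction and side of the threshold, 21 lost a call, 6 gained one and 22 turned in sign, all 22 where the member was not called in that region or for the pausing index. E2f8 in the TSS region turned to -0.0362 with centring, -0.0664 with quantile normalization, -0.00724 in edgeR and -0.0153 in DESeq2, and with 1 library left out ran from -0.21 to 0.20, below 0 without Ctrl replicate 3 or Kmt5b sKO replicate 3. E2f5 ran from -0.29 to 0.31, above 0 without the same libraries (0.02 and 0.31). In the gene body with 1 library left out, E2f2 ran from -0.0693 to 0.53, below 0 without Ctrl replicate 2, Ctrl replicate 3 or Kmt5b sKO replicate 3, E2f5 from -0.0411 to 0.18, below 0 without Ctrl replicate 1, Ctrl replicate 2 or Kmt5b sKO replicate 3, and E2f6 from -0.0217 to 0.14, below 0 without Ctrl replicate 3. In DESeq2 E2f5 turned to -0.00444. The log2 fold change of the pausing index ran from -0.17 to 0.0774 for E2f7, above 0 without Ctrl replicate 1 or 3 or Kmt5b sKO replicate 1 or 3, from -0.0295 to 0.36 for E2f4, below 0 without Kmt5b sKO replicate 1, and from -0.41 to 0.33 for E2f5, above 0 without Kmt5b sKO replicate 3. The cause was not tested. Under every alternative run, the log2 fold change stayed between -1.47 and -0.82 for E2f3 and between -1.51 and -1.10 for E2f7 in the TSS region, and between -0.78 and -0.60 for Rbl1 and between -1.55 and -1.04 for E2f7 in the gene body. The lowest read numbers behind a value were 11 in the TSS region (E2f1) and 60 in the gene body (E2f7).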
